A study of Mus musculus with 3 samples.

Results

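The 10 BCL2 family survival genes Bcl2, Mcl1, Bcl2l1, Bax, Bak1, Bcl2l11, Bid, Bad, Bbc3 and Pmaip1 were examined in mouse natural killer cells, out of 21853 protein-coding genes in the annotation. They were chosen by name. For each gene, all accessible sites and footprints in its body and in 20 kb on either side were taken from each library. The cells were primary cells of adult male B6CASTF1/J mice (virgin, 2 months old), which are F1 offspring of C57BL/6 and CAST parents. They formed 1 group of 3 DNase-seq replicates with no control group. The labels call the libraries biological replicates, give them 1 shared donor and separate biosamples, and name no sort or gate. Technical and biological differences between replicates therefore cannot be told apart. DNase I digests nucleosome-free DNA. Clusters of cuts form peaks, and a footprint is a short stretch within them that is protected from cutting.

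BCL2 family proteins decide at the mitochondrial outer membrane whether a cell dies by apoptosis. Pro-survival members (BCL2, MCL1 and BCL-XL, the product of Bcl2l1) hold back the effectors BAX and BAK, which form pores and release cytochrome c. BH3-only proteins (BIM, the product of Bcl2l11, BID, BAD, PUMA, the product of Bbc3, and NOXA, the product of Pmaip1) bind the pro-survival members, and some of them also activate the effectors. In natural killer cells, interleukin-15 signalling is known to maintain MCL1 and to restrain BIM.

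The sequences that carry the strongest accessible sites are given first, as the mm10 reference (RefSeq GRCm38.p6) in the direction of each gene. Capitals mark bases that lay in a called footprint in all 3 replicates, whether or not that footprint overlapped a peak. Untranslated exon sequence was left out. The reference is of the C57BL/6J strain, and differences on the CAST alleles were not analysed. The promoters of the pro-survival genes are shown because they span the range of signal. They lie at chr1:106714275-106714474, minus strand (Bcl2), chr3:95658601-95658787, plus strand (Mcl1) and chr2:152831281-152831480, minus strand (Bcl2l1, in the transcribed region between annotated start sites).
Bcl2 promoter: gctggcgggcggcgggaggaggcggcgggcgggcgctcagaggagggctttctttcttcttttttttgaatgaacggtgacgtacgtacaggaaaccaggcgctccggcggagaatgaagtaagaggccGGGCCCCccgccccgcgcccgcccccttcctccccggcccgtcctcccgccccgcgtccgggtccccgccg
Mcl1 promoter: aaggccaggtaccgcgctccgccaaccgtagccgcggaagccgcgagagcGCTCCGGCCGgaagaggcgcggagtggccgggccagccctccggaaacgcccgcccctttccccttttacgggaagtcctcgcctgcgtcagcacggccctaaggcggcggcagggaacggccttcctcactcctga
Bcl2l1 promoter: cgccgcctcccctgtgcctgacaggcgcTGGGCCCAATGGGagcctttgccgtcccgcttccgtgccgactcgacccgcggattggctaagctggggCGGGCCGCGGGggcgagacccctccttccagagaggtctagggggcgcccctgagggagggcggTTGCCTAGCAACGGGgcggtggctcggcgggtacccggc

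Promoters of the BH3-only genes with the highest signal are shown as their contrast. They lie at chr2:128125731-128125930, plus strand (Bcl2l11), chr6:120916854-120916980, minus strand (Bid) and chr7:16309401-16309600, plus strand (Bbc3, at an internal start site).
Bcl2l11 promoter: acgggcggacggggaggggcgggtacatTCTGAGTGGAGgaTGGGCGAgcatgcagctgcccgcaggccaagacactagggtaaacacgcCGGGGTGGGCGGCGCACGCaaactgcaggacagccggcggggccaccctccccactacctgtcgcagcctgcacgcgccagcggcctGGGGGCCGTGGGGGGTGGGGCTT
Bid promoter: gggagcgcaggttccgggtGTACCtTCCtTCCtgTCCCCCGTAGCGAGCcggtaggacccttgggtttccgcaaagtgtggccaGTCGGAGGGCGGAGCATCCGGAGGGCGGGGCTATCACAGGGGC
Bbc3 internal promoter: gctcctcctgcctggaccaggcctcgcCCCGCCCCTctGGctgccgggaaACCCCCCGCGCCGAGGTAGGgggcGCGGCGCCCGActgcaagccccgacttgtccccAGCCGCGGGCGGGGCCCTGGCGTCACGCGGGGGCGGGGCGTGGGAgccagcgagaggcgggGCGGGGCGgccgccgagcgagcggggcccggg

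For 4 genes, the site away from promoters that had the highest mean percentile among those found in all 3 libraries is shown. They lie in a coding exon of Bcl2 (chr1:106712421-106712620, minus strand), past the 3′ end of Bcl2l1 (chr2:152766581-152766760, minus strand), inside the neighbour Gys1 of Bax (chr7:45451401-45451580, minus strand) and upstream of Bbc3 (chr7:16294881-16295060, plus strand).
Bcl2 coding exon site: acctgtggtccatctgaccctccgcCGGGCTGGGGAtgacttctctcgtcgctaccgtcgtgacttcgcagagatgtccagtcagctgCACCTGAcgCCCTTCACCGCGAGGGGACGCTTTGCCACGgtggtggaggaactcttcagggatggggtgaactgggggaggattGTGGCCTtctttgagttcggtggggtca
Bcl2l1 3′ site: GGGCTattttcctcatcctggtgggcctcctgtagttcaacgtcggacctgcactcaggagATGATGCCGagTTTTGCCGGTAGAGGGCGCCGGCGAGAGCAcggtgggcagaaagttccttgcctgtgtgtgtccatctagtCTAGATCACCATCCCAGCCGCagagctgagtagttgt
Bax downstream site: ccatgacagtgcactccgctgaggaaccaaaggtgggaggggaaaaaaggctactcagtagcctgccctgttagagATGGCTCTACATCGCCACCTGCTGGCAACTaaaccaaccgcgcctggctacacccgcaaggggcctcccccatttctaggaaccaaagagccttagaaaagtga
Bbc3 upstream site: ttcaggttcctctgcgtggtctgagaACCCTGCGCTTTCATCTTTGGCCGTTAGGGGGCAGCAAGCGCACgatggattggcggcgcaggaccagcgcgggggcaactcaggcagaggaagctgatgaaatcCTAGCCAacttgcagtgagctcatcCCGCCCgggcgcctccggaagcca

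Footprint capitals covered 7 of 200 printed bases at the Bcl2 promoter, 10 of 187 at Mcl1 and 39 of 200 at Bcl2l1. They covered 60 of 200 at Bcl2l11, 69 of 127 at Bid and 95 of 200 at Bbc3. The stretches are parts of the promoters, so these numbers do not compare whole promoters. The strongest Bcl2 promoter peak of replicate 1 lay outside the printed stretch, and the whole Bcl2 promoter element held 5, 7 and 8 footprints in replicates 1, 2 and 3. A GC box (GGGCGG or its complement, the letters bound by SP1-type factors) had at least 3 of its 6 letters in capitals in the Bcl2l1, Bcl2l11, Bid and Bbc3 promoters. In Bcl2l11 this GC box lay outside the replicate 1 promoter peak, so the motif counts below hold it in 2 replicates. In the Mcl1 promoter the single run of capitals ended inside an ETS match (CCGGAA), 3 of whose 6 letters are capitals. The Bax downstream site carried a CTCF match within its single run of 30 capitals.

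Each of the 10 promoters was open in every replicate. A promoter spans 500 bp on either side of any annotated start, and it is open where a peak overlaps it. The same held for 51.3% of protein-coding genes (11209 of 21853). Among the 15710 genes whose promoter CpG ratio was at or above 0.297, the lowest of the 10 (Bak1), it held for 69.4%, a restriction chosen after seeing the data. Apart from Bak1, the 10 genes had ratios between 0.707 and 1.01, above the protein-coding median of 0.614. The restricted set is therefore not matched to them. In replicates 1, 2 and 3 taken singly, 51.7%, 58.8% and 58% of protein-coding genes had a promoter peak. All 10 were also found in the smaller peak list that was deposited for each library. With 1 group and 10 genes picked by name, no test was made. Promoter strength is given as the percentile of the strongest promoter peak among all peaks of its library, because the unit of peak signal is not stated.

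The libraries differed in size and in marker promoters. Replicates 1, 2 and 3 held 40484, 84564 and 81854 peaks and 101990, 239483 and 222990 footprints. Read depth is unknown from these files. Of 10 natural killer markers, 7 had a promoter peak in all 3 replicates and the other 3 (Klrb1c, Klrd1 and Tbx21) in replicates 2 and 3. Ncr1, which encodes NKp46, had signals of 2.501, 2.87 and 6.48, at percentiles 77.5, 81.1 and 90.3. Of 10 B cell markers, 6 were open in all 3 libraries, and Cd79a had signals of 0.779, 5.78 and 2.73, at percentiles 34.5, 90.1 and 78.6. Cd79a thus ranked above Ncr1 in replicate 2 and below it in replicates 1 and 3. Pax5 was the highest B cell marker in replicates 2 and 3, at 96.0 and 92.4. Over markers open in all 3 libraries, the median of the mean percentiles was 83.9 for natural killer and 70.7 for B cell markers. Of 10 T cell markers, 3 were open in all 3 libraries, with 3, 8 and 6 open in replicates 1, 2 and 3, and Cd4 and Cd8a had no peak in any. Cd28 was highest in replicate 3, at percentiles 71.6, 84.4 and 91.4. Cd3g and Cd5 were instead higher in replicate 2 (56.1 and 71.6) than in replicate 3 (28.7 and 56.3). Of 8 monocyte and macrophage markers, 4 were open in all 3 libraries, of 4 erythroid markers 1, and of 6 neutrophil markers 0. A peak list does not tell fewer cells of a type from less accessible DNA per cell.

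Among the pro-survival genes, Bcl2l1 had the strongest promoter and Bcl2 the weakest. Bcl2l1 (chr2:152780668-152831728, minus strand) had promoter signals of 9.20, 15.7 and 17.1 in replicates 1, 2 and 3. These stood at percentiles 98.3, 97.7 and 97.9 of their libraries, a mean of 97.9 ± 0.287 (SD, n = 3). Mcl1 (chr3:95658788-95663176, plus strand) had signals of 3.70, 8.08 and 8.68, at percentiles 85.2, 93.1 and 93.1 (90.4 ± 4.52). Bcl2 (chr1:106538178-106714274, minus strand) had signals of 1.84, 3.30 and 3.36, at percentiles 69.6, 83.3 and 82.0 (78.3 ± 7.60). The 3 ranges did not overlap: every Bcl2l1 value lay above every Mcl1 value, and every Mcl1 value above every Bcl2 value. With both wider promoter definitions tried, Bcl2 took in a stronger peak in its coding exon and stood at 83.5, 88.2 and 89.2 (87.0 ± 3.06), which overlapped Mcl1 and Bak1. Of all promoters open in 3 replicates, 25.5% had a mean percentile at or below that of Bcl2, and 88.8% at or below that of Bcl2l1.

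The effector promoters were intermediate. Bax (chr7:45461697-45466898, minus strand) had signals of 4.65, 10.9 and 12.2, at percentiles 89.2, 95.4 and 95.8 (93.4 ± 3.68, SD, n = 3). Bak1 (chr17:27019810-27029009, minus strand) had signals of 3.81, 6.86 and 7.20, at percentiles 85.8, 91.7 and 91.4 (89.6 ± 3.31). The ranges of Bax and Bak1 overlapped. The Bak1 peak also lies in a promoter of Ggnbp1, which shares the locus, so its signal cannot be assigned to Bak1 alone. Bak1 also had the lowest promoter CpG ratio of the 10.

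Among the 10 genes, Bcl2l11, a BH3-only gene, had the highest mean promoter percentile. In replicate 1 its promoter stood below those of Bcl2l1 and Bid. Bcl2l11 (chr2:128126038-128162547, plus strand) had signals of 7.49, 19.97 and 21.6, at percentiles 96.3, 98.9 and 98.9 (98.0 ± 1.52, SD, n = 3). Bid (chr6:120891930-120916853, minus strand), whose product links death receptors to mitochondria, had signals of 8.43, 13.7 and 12.2, at percentiles 97.6, 96.8 and 95.8 (96.7 ± 0.906). Every Bcl2l1 value exceeded every Bid value, while the ranges of Bcl2l11 and Bcl2l1 overlapped. Bbc3 (chr7:16308393-16318205, plus strand), a p53 target, had signals of 4.67, 10.04 and 14.5, at percentiles 89.3, 94.7 and 96.9 (93.6 ± 3.91). Its strongest promoter peak was not at the same start site in all libraries. It lay 1728 bp into the gene in replicate 1 and 1138 bp into it in replicates 2 and 3. At the 5′ end of the gene model a promoter peak was called in replicate 2 alone, with a signal of 0.508 at percentile 30.98. Taking only the start site at the 5′ end, 9 of the 10 genes remained open in all 3 replicates.

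Bad (chr19:6941861-6951899, plus strand), whose product is switched off by phosphorylation downstream of growth factors, had signals of 6.12, 8.74 and 8.52, at percentiles 93.6, 93.7 and 92.9 (93.4 ± 0.440, SD, n = 3). Its 3 promoter elements also lie in promoters of Gpr137, so the signal is shared between the 2 genes. Pmaip1 (chr18:66458533-66465565, plus strand), another p53 target, had signals of 4.35, 8.01 and 7.41, at percentiles 88.1, 93.0 and 91.7 (90.9 ± 2.53). In the order of mean percentile, from Bcl2l11 through Bcl2l1, Bid, Bbc3, Bax, Bad, Pmaip1, Mcl1 and Bak1 to Bcl2, neighbours had ranges that did not overlap only between Bcl2l1 and Bid and between Bak1 and Bcl2. Of the neighbours with overlapping ranges, only Bad stood above the next gene, Pmaip1, in 3 of 3 replicates. The median over the 10 genes was 93.4, against 89.5 over all promoters open in 3 replicates. The upper quartile of those promoters begins at 95.3.

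**Figure D1:**
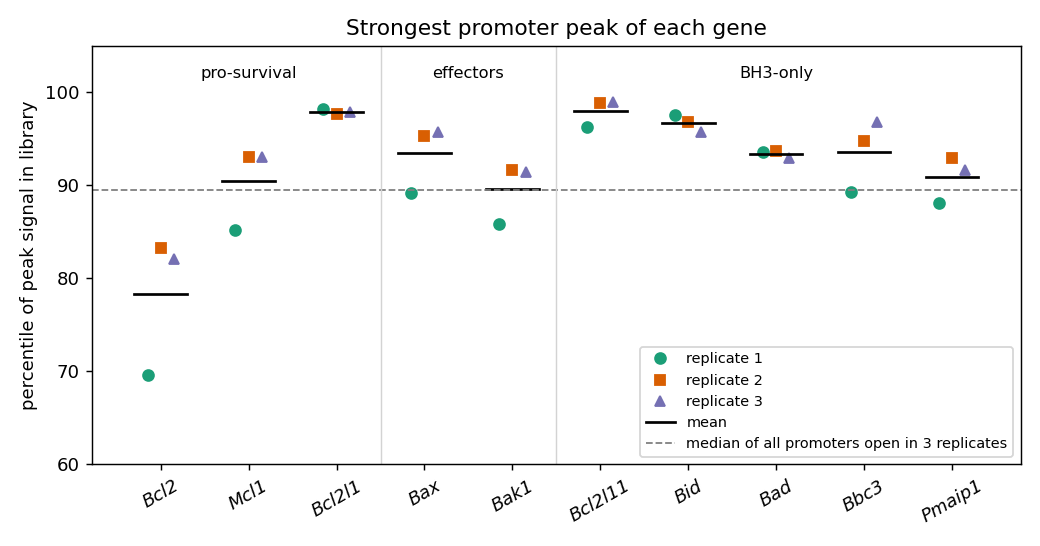
Percentile of the strongest promoter peak among all peaks of its library (vertical axis, starting at 60), for 10 genes grouped by role. Symbols are replicates 1, 2 and 3, the bar is their mean and the dashed line is the median (89.5) of all promoters open in 3 replicates; Bcl2l11 and Bcl2l1 stand at 98.0 and 97.9 and Bcl2 at 78.3.

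The windows held many accessible sites, at promoters and beyond them. Peaks of different replicates that overlapped by at least 1 bp were joined into elements. The 10 windows held 80, 139 and 134 peaks in replicates 1, 2 and 3, joined into 152 elements, of which 117 were found in at least 2 replicates and 71 in all 3. Leaving out replicate 2 or replicate 3 left 73 or 71 elements found in at least 2 libraries, and leaving out replicate 1 left 117. Of the 117 elements, 60.7% were found in all 3 libraries, against 53.4% of 65804 such elements in the genome. Another 44 were called in replicates 2 and 3, 2 in replicates 1 and 3, and 0 in replicates 1 and 2. In replicate 1, the deposited intervals with an FDR of at most 0.05 touched 3 of those 44 elements, with at most 468 bp. Replicate 1 had 16.1 Mb of such intervals, against 32.3 and 30.9 Mb in replicates 2 and 3.

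By position, 16 of the 117 elements overlapped a promoter of their own gene and 9 a promoter of another gene. Introns held 39, exons 5, bodies of other genes 13 and intergenic DNA 35. The median window held 11 elements, against 4 for protein-coding genes, and 1.77 elements per 10 kb, against 0.486. Protein-coding genes in the densest 10% begin at 1.501 per 10 kb. All 10 genes had open promoters, while 51.3% of the protein-coding genes compared had one in all 3 replicates. No comparison with open genes alone was made, and this limit also holds for the ranks by number and density below. Windows hold neighbours' sites as well: without elements at promoters of other genes, 104 elements remained.

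**Figure D2:**
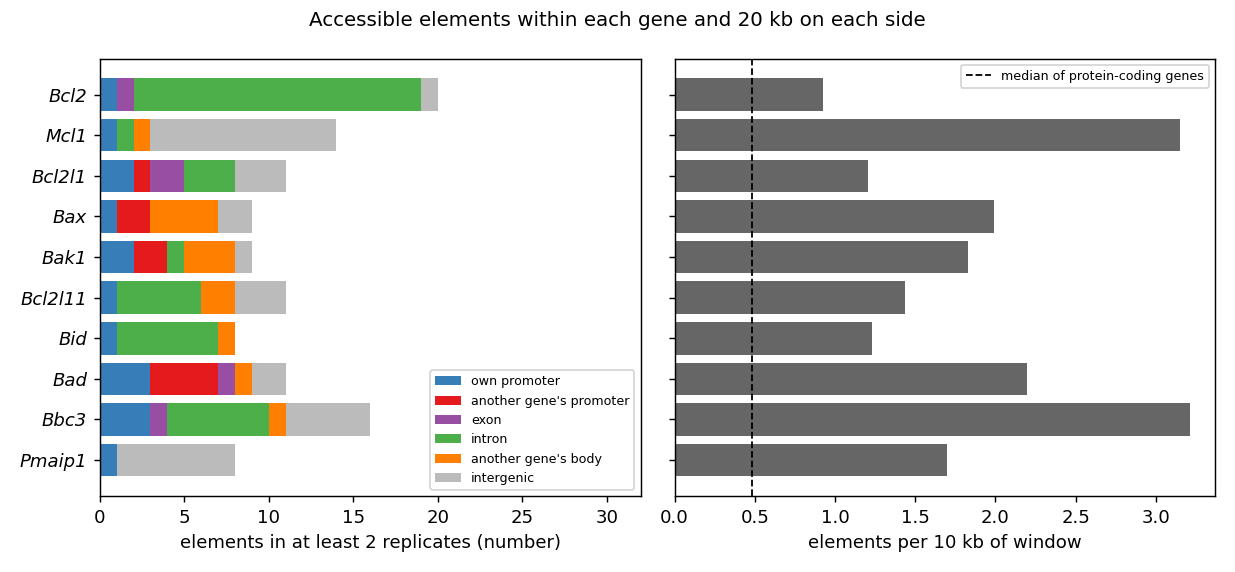
Left, number of elements found in at least 2 replicates in each gene and 20 kb on each side, split by position; right, the same per 10 kb of window, with the median of protein-coding genes (0.486) dashed. Bcl2 had 20 elements, of which 17 were intronic, while Mcl1 and Bbc3 had 3.15 and 3.21 per 10 kb.

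Of the 10 genes, Bcl2 combined the weakest promoter with the largest number of elements found in at least 2 replicates. Its window held 20, of which 7 were found in all 3 replicates, fewer than the 13 of Bbc3. With the smaller peak list Bcl2 had 12 elements and Bbc3 16. By number of elements Bcl2 stood at or above 99.2% of protein-coding genes, and by density, 0.926 per 10 kb, at or above 73.1%. The gene spans 176097 bp, and the part of gene length in the number was not tested. Leaving out replicate 2 or replicate 3 left 7 elements. The strongest lay in a coding exon, 1753 bp into the gene, with signals of 3.36, 4.81 and 5.78. Its percentiles of 83.5, 88.2 and 89.2 were higher than those of the promoter in 3 of 3 replicates. A second group lay far into the long intron. One of these elements, 169233 bp into the gene, had percentiles of 41.1, 80.7 and 74.3, and held a CTCF match in a footprint of 2 replicates.

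Around Mcl1, most sites lay outside the gene. Of 14 elements, 11 were intergenic, and the density of 3.15 per 10 kb was at or above that of 99.6% of protein-coding genes. A cluster of 6 elements stood between 13933 and 18143 bp past the gene start, beyond its 3′ end. The one with the highest mean percentile, at 14373 bp, had signals of 1.91, 4.30 and 5.79, at percentiles 70.6, 86.9 and 89.2. In replicate 2 another, at 15583 bp, was stronger, with a signal of 5.11. The last of the cluster lies inside the neighbour Adamtsl4 and carried a CTCF match in footprints of all 3 libraries. Intervals with an FDR of at most 0.05 covered 7.62%, 16.9% and 14.8% of the Mcl1 window.

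Bcl2l1 had 11 elements, 7 of them in all 3 replicates. Away from promoters, the strongest was the 3′ site printed above, 65047 bp from the gene start, with signals of 3.68, 5.17 and 6.62 at percentiles 85.1, 89.0 and 90.6. An intronic element 5797 bp into the gene differed more between libraries, with signals of 0.779, 2.51 and 3.56 at percentiles 34.5, 78.8 and 82.9. It carried 2 NF-kB matches and a RUNX match (TGTGGT) in footprints of 2 replicates. The window also takes in the promoter of Tpx2, a spindle gene, at percentiles 93.8, 96.2 and 96.8.

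Bcl2l11 had 11 elements, 8 of them in all 3 replicates, and 10 of the 11 lay in 2 clusters. The other one, past the 3′ end 54023 bp from the start, was called in replicates 2 and 3. The cluster at the start of the gene held the promoter and an intronic element 1433 bp into the gene, with signals of 3.85, 9.60 and 11.3 at percentiles 85.9, 94.4 and 95.2. The cluster further in lay deep in the gene around an element of 1120 bp in width, 27223 bp from the start. That element had signals of 1.62, 5.45 and 6.19 at percentiles 65.7, 89.5 and 89.9, and held 13, 10 and 12 footprints. Its footprints carried an E-box (CACGTG) in all 3 libraries and a CRE core (TGACGT) in 2.

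The effector genes are short, and other genes fill much of their windows. Around Bax, 6 of 9 elements lay at promoters or in bodies of other genes, among them the promoter of Ftl1, which encodes the ferritin light chain, at percentiles 90.9, 97.4 and 96.7. The Bax downstream site, with signals of 2.09, 6.36 and 4.47, stood at percentiles 73.1, 91.0 and 86.1. Bak1 had 9 elements and all 9 were found in all 3 replicates. Of these, 3 carried a CTCF match in footprints of all 3 libraries, 2 of them in the body of another gene and 1 at a promoter of Ggnbp1.

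The remaining BH3-only genes differed in layout. Bid had 8 elements, 6 of them intronic, and 2 were found in all 3 replicates. Its strongest element away from the promoter, 1562 bp into the gene, had percentiles of 80.5, 89.8 and 89.5. Bad had 11 elements, of which 4 lay at promoters of Esrra, Catsperz, Kcnk4 and Plcb3. Among its elements found in all 3 replicates, the strongest away from promoters reached percentiles of 42.4, 50.02 and 53.3. An exonic and an intergenic element called in replicates 2 and 3 were higher there, at 62.6 and 60.6 and at 65.5 and 54.8. Pmaip1 had its promoter and 7 intergenic elements, and none in its introns.

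Bbc3 stood in the most densely accessible window of the 10. It had 16 elements, 13 of them in all 3 replicates, and 3.21 per 10 kb, at or above 99.7% of protein-coding genes. Intervals with an FDR of at most 0.05 covered 15.03%, 18.8% and 15.8% of its window. An upstream cluster of 5 elements ran between 13862 and 8539 bp before the gene start. The element with the highest mean percentile, printed above, had signals of 6.10, 12.5 and 13.7 at percentiles 93.6, 96.3 and 96.5, in the range of the promoter itself. Another element, 11402 bp upstream, had signals of 3.54, 12.5 and 12.6, and ranked just above it in replicate 2. Within the gene, an intronic element 4808 bp from the start had signals of 4.82, 5.96 and 12.6 at percentiles 89.8, 90.4 and 96.0. The ranges of the printed upstream element and of this intronic element overlapped.

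**Figure D3:**
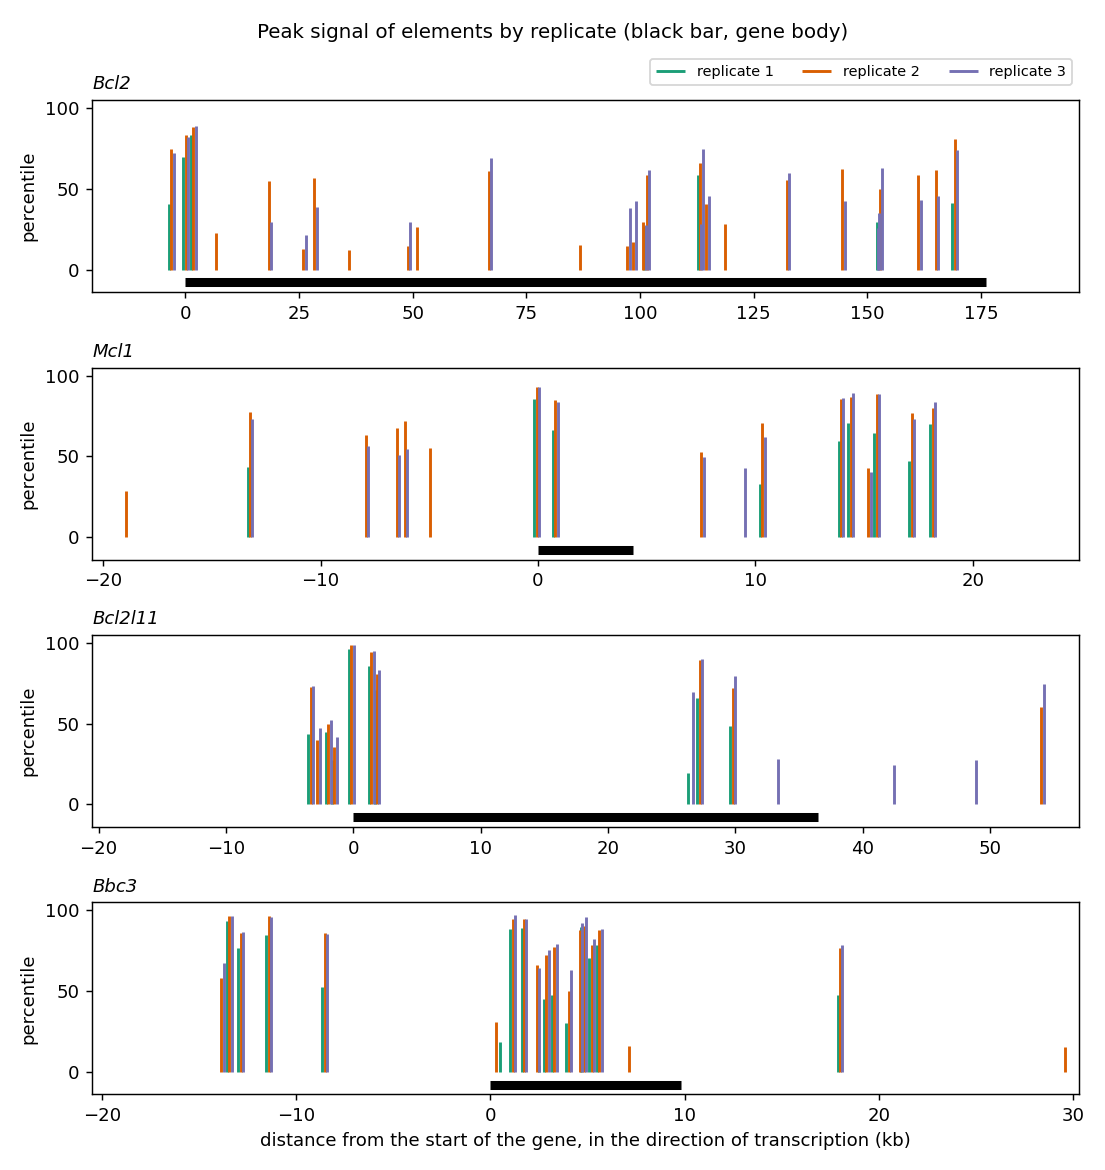
Elements around 4 genes, placed by distance from the gene start in the direction of transcription (kb, negative upstream), with the percentile of peak signal in each replicate on the vertical axis. Lines of the 3 replicates are set slightly apart and black bars are gene bodies. Bcl2 shows intronic elements along 176097 bp, Mcl1 a cluster beyond its 3′ end, Bcl2l11 a pair of clusters, and Bbc3 an upstream and an internal cluster.

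Replicates 2 and 3, which held similar numbers of peaks, differed in marker promoters and little at the 10 genes. The log2 ratio of promoter signal, replicate 2 over replicate 3, was centred on all promoters open in 3 replicates, over which its SD was 0.27. The 10 genes had a median of -0.05 on this scale, with values between -0.50 and 0.20. Bid was highest at 0.20 and Bbc3 lowest at -0.50. Bbc3 signals were 10.04 in replicate 2 and 14.5 in replicate 3. Of all open promoters, 6.89% lay beyond 0.5 in either direction. The 10 natural killer markers had a median of -0.98 and 0 of 10 above 0, and the 9 B cell markers with a value had a median of 1.07, all 9 above 0. The 6 T cell markers with a value had a median of 0.03, between -0.99 and 1.00, with 3 of 6 above 0. Natural killer and B cell markers move with the libraries, and their part in the values of the 10 genes was not tested.

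**Figure D4:**
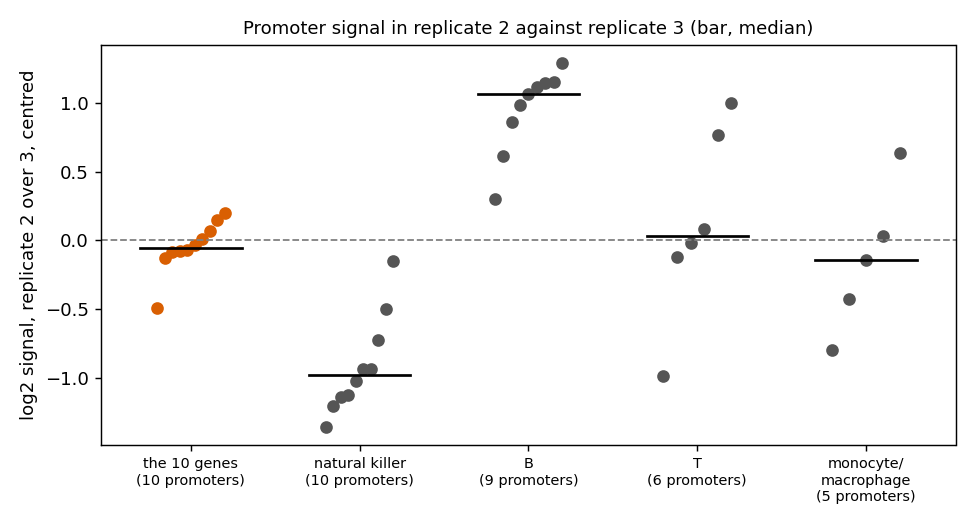
Centred log2 ratio of promoter signal, replicate 2 over replicate 3, one point per promoter open in both, with the median as a bar. The 10 genes lie between -0.50 and 0.20, natural killer markers have a median of -0.98 and B cell markers of 1.07.

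Footprint numbers in the windows differed by library. The windows held 181, 367 and 352 footprints within peaks in replicates 1, 2 and 3, a mean of 300.0 ± 103 (SD, n = 3). Per kb of peak these were 9.64, 12.5 and 12.2, against 9.76, 11.4 and 11.3 over all peaks of the libraries. Replicate 1, which had the fewest peaks and footprints over the whole library, also had the fewest footprints here. The part of library size in these numbers was not tested.

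Motif letters were counted on both strands within footprints widened by 5 bp, and a site counted when at least 2 replicates held it. A match is said to be at a gene when it lies anywhere in its window, which takes in sites of neighbouring genes. A match describes the letters and not a bound factor, and different motifs may share letters. A GC box was found at all 10 genes (39 sites), although the only one in the Bak1 window lay at a promoter of Ggnbp1. The GC box was in 12.2%, 11.4% and 11.4% of the footprints in these windows, against 11.5%, 8.05% and 8.22% of all footprints within peaks. A KLF core (CACCC) was found at 9 genes (38 sites), all but Mcl1. With footprints widened by 10 bp it was found at all 10. It was in 14.9%, 11.99% and 11.9% of the footprints in these windows, against 6.98%, 8.001% and 8.20% of all. Of peak centres of 150 bp, 24.3%, 17.1% and 17.3% held a GC box and 40.8%, 40.6% and 40.8% a KLF core in the 3 libraries. CTCF matches were found at 7 genes (10 sites), in 3.87%, 3.00% and 3.41% of the footprints in these windows, against 2.92%, 3.54% and 3.46% of all.

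Matches to the remaining motifs were found at 0 to 7 genes, and most of these counts fell when replicate 2 or replicate 3 was left out. RUNX matches were found at 7 genes (8 sites), none of them in a promoter of its own gene. They were in 1.10%, 2.72% and 3.13% of the footprints in these windows, against 1.55%, 2.26% and 2.67% of all. Without replicate 2 or without replicate 3, 2 genes had a RUNX match. NF-Y matches (CCAAT) were found at 6 genes (9 sites), in 3.31%, 4.09% and 2.84% against 2.89%, 2.64% and 2.75% of all, and at 1 gene without replicate 2. MYB matches (CAACGG, in which the opening base and the next-to-last base may also be T) were found at 5 genes (8 sites), in 2.76%, 2.997% and 2.27% against 1.67%, 1.79% and 1.86%. Without replicate 2 or 3 they were found at 2 genes.

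ETS matches were found at Mcl1, Bcl2l1 and Bid (6 sites), each with at least 1 in its own promoter, and at 6 genes with footprints widened by 10 bp. They were in 3.31%, 1.91% and 1.99% of the footprints in these windows, against 2.81%, 2.07% and 2.20% of all. E-box matches were found at 4 genes (6 sites), and Bax held 3 of these in its promoter. Their shares were 1.10%, 1.91% and 1.99%, against 0.829%, 1.01% and 1.02%, and 2 genes had one without replicate 2 or 3. NF-kB matches were found at Bcl2l1 and Bbc3, in 0.552%, 1.36% and 0.852% against 0.256%, 0.426% and 0.432%. NRF1 matches (GCGCATG) were found at Bax, Bak1 and Bad, in 0.552%, 1.09% and 1.14% against 1.08%, 0.650% and 0.669%. Only Bax had one in its own promoter, while those of Bak1 lay at a promoter of Ggnbp1 and those of Bad in the body of Kcnk4. CRE cores were found at Bcl2l11 and Pmaip1, in 0.552%, 1.09% and 1.14% against 1.42%, 1.09% and 1.17%. For NF-kB, NRF1 and CRE 1 gene had a match without replicate 2 or 3.

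The rarest matches rested on few footprints. STAT matches (TTCNNNGAA) were found at Bcl2 and Bax, in 0.552%, 0.817% and 0.284% of the footprints in these windows, against 0.265%, 0.299% and 0.313% of all. The one in the Bax window lay in the body of the neighbour Dhdh. Leaving out replicates 1, 2 and 3 in turn left a STAT match at 1, 0 and 1 genes. One AP-1 match (TGANTCA) lay at Pmaip1, in 0%, 1.09% and 0.852% against 0.335%, 0.597% and 0.780%. It was lost without replicate 2 or 3, while with footprints widened by 10 bp 4 genes had one. One IRF match (GAAA, any 2 bases, then GAAA) lay at Bak1, in 0%, 0.272% and 0.284% against 0.178%, 0.258% and 0.260%, and was also lost without replicate 2 or 3. T-box (GGTGTGA), FOXO (GTAAACA), NFIL3 (TTANGTAA) and p53 matches were found in no footprint of at least 2 replicates, and each was in at most 0.364% of all footprints. With footprints widened by 10 bp, FOXO and p53 matches were found at 1 gene each. The FOXO letters do occur in the Bcl2l11 promoter printed above, in lower case.

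**Figure D5:**
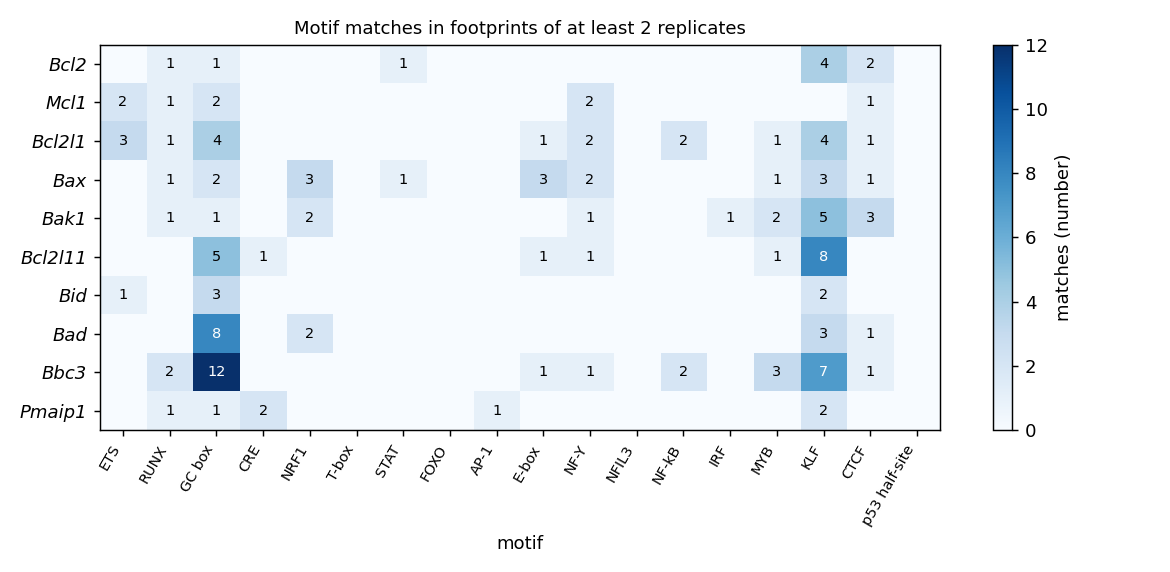
Number of motif matches in footprints found in at least 2 replicates, by gene (rows) and motif (columns); empty cells are 0. Matches lie anywhere in the window of a gene. The GC box is present in all 10 windows, with 12 matches around Bbc3, and the KLF core in 9.

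Other genes of the pathway were counted in the same way. Of 15 further BCL2 family genes, 10 were open in every replicate. The highest were Bnip3l at a mean percentile of 99.9, Bcl2l13 at 98.4 and Bcl2l12 at 97.8. Bmf, another BH3-only gene, stood at 88.5 ± 7.70 (SD, n = 3). Bcl2l10, Bcl2l15, Bok and Hrk had no promoter peak in any replicate, and Bcl2l14 had one in replicates 2 and 3. Bcl2a1a, Bcl2a1b and Bcl2a1d are near-identical copies, so their values (52.3 to 69.3) are uncertain.

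All 21 genes of the apoptosome, caspases and inhibitors were open in all 3 replicates. Apaf1, the scaffold of the apoptosome, stood at a mean percentile of 99.7, Diablo, an antagonist of inhibitors of apoptosis, at 98.999 and Cycs, cytochrome c, at 98.7. All 22 genes upstream of the family were open as well, led by Stat3 at 99.4, Jak1 at 98.8 and Pim1 at 97.2. Il2rb, the receptor chain shared by interleukin-2 and interleukin-15, had signals of 4.21, 6.61 and 12.9 and a centred log2 ratio of -0.93. No test was made of these lists, and all stand beside the 51.3% of protein-coding genes that were open.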

How the data were processed

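DNase-seq peaks, footprints and intervals were taken as deposited, in mm10 coordinates per the labels. The aligner and the callers were not given in the sources. For each library the authors deposited 2 peak lists whose column 7 is a signal with no stated unit. The longer list was used, and signal was ranked within its library. The deposited footprint score is the constant 0.01 and was not used. The deposited intervals carry a q-value (FDR) of up to 0.05. Footprints counted where they overlapped a peak, except in the printed sequences, where capitals mark called footprints in or out of peaks. Genes and 54361 start sites came from the GENCODE annotation of GRCm38 (protein-coding transcripts). Peaks of the 3 replicates were joined into elements and placed by promoter overlap, then by their middle. Overlaps were computed in Python (numpy 2.4.6, pysam 0.24.0, matplotlib 3.10.9), tested on simulated data, and checked with bedtools, with 0 differences. The 10 genes, the context and marker lists, the 18 motifs and the rule for described elements (each promoter and the strongest other element in all 3 replicates) were chosen with earlier results of these data known. The other elements described were picked after their values were seen. The smallest exact p for 3 replicates is too large for a test, so none was made. Alternatives were the other peak list, leaving out each replicate, other promoter widths, start sites, window sizes, overlap rules and footprint margins.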

Additional observations from a re-analysis of the deposited data

How the results depend on the processing

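The count of 10 genes open in all 3 replicates was 10 under every alternative tried except the start site at the 5′ end alone, which gave 9. The 117 elements found in at least 2 replicates became 58 within gene bodies alone, 180 with 50 kb on each side and 71 when all 3 replicates were required, and leaving out each replicate in turn gave 71 to 117. With the other peak list the count was 94. The mean of 300.0 footprints within peaks became 139.667 within gene bodies alone and 497.667 with 50 kb on each side, and 266.5 to 359.5 when a replicate was left out. The centred log2 ratio of Bak1 was -0.04, while the difference of percentiles, replicate 2 minus replicate 3, was 0.28. The cause was not tested. Counts of elements per gene moved by over 1.5 times in 39 of 120 recomputed values, and percentiles by over 1 SD in 8 of 79. No paired comparison between groups was possible because there is 1 group. Peak signal has no stated unit and read depth is unknown, so absolute levels and limits of detection cannot be given. Counts of genes with a motif moved in 24 of 72 recomputed values. A missing peak in replicate 1, which had the fewest peaks, does not by itself show a closed site. An element 4588 bp into Bbc3 had no peak there, yet all 200 bp lay in intervals with an FDR of at most 0.05. It adjoins an element that had a peak in replicate 1. Of the 44 elements called only in replicates 2 and 3, such intervals touched 3 in replicate 1, and the median was 0 bp. Whether the rest were closed there was not tested.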

Other observations

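Neighbouring genes held some of the strongest sites in these windows. The promoter of Esrra, which encodes an oestrogen-related nuclear receptor, lies in the Bad window 19930 bp before the start of Bad. It had signals of 15.04, 41.3 and 42.8 in replicates 1, 2 and 3, at a mean percentile of 99.96 ± 0.0363 (SD, n = 3). The Ftl1 promoter, 6977 bp past the start of Bax, stood at 95.01 ± 3.55, and the Tpx2 promoter in the Bcl2l1 window at 95.6 ± 1.6004. In each of the 3 libraries the Esrra promoter was above the Bad promoter, while the ranges of the Ftl1 and Bax promoters overlapped.

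A pair of elements were called in replicates 1 and 3 and not in replicate 2, 1 in an intron of Bcl2l11 and 1 in an intron of Bid. Both were covered over 340 bp by intervals with an FDR of at most 0.05 in replicate 2.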
